A study of Mus musculus with 2 samples.

Results

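A pair of Fc-enhanced antibodies to mouse GITR was compared in tumour leukocytes: GITR/Syn GA-aFuc, which the deposited annotation calls a non-agonist, and GA-aFuc, which it calls an agonist. The cells were chosen by the treatment named in the annotation, which gave 9730 of 19210 annotated cells. Of these, 5035 came from 3 GITR/Syn GA-aFuc mice and 4695 from 3 GA-aFuc mice. Counts were at hand for 6917 of them, all from the second of 2 pooled libraries. They came from GITR/Syn GA-aFuc replicates 2 and 3 (1729 and 1925 cells) and GA-aFuc replicates 2 and 3 (1723 and 1540 cells). Shares of cell types were therefore compared over 3 mice against 3, and expression over 2 mice against 2.

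GITR, encoded by Tnfrsf18, is a receptor of the TNF receptor family on T cells and NK cells that signals through TRAF adaptors to NF-kB when its ligand or an agonist antibody clusters it. The Fc part of an antibody is read separately, by Fcγ receptors on macrophages, monocytes and NK cells, which can kill or engulf the coated cell. Myeloid cells in tumours range from interferon-driven states that present antigen to an arginase-rich state, often called alternative activation, that IL-4 and IL-13 induce through the transcription factor STAT6.

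MC38, a mouse colon carcinoma line, grew under the skin of mice carrying human Fcγ receptors, and CD45+ leukocytes were sorted from the tumours. Both antibodies carry the constant region of human IgG1. Each was injected at 100 µg, 2 times with an interval of 3 days, and tumours were taken 4 days post treatment. N297A (agonist, Fc-null) and Untreated (PBS) mice, 3 each, give the surrounding levels, with counts for 1 mouse of each. The labels give neither the change that removed agonism, nor the ages and sexes of the mice, nor how the human receptors are driven.

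Replicate 2 of both treatments was female by Xist (551 CPM after GITR/Syn GA-aFuc and 567 CPM after GA-aFuc, where CPM is the count per 1000000 UMIs), and both replicates 3 lay under 2 CPM with Uty present, so sex was balanced between the treatments. Total UMIs (unique molecular identifiers, 1 per captured RNA molecule) were 2.20e+07 and 2.58e+07 after GITR/Syn GA-aFuc, and 2.33e+07 and 1.72e+07 after GA-aFuc. Median UMIs per cell were 12565 and 12747 against 13084 and 10461. Barcodes seen in more than 1 mouse numbered 34, and all 34 lay in different libraries. P-values of the main tests rest on the spread between these mice, shared over the genes or cell types of a fit. The authors' names were checked against markers: 9 macrophage markers summed to 17781 to 25784 CPM in macrophages of the 4 mice and to 486 to 1352 CPM in their CD8 cells. Cells named Tregs were too few to check, with 0 Foxp3 UMIs in the 1 and 1 cells of the GITR/Syn GA-aFuc mice and in the 2 and 1 cells of the GA-aFuc mice, while 6 of 8 N297A and 7 of 11 Untreated Treg cells had one.

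CD4 T cells, the helper cells of the series title, were the 1 cell type whose share passed the test, and they were fewer with GITR/Syn GA-aFuc. A share of sorted cells cannot tell fewer cells of a type from more cells of the other types. CD4 cells made up 0.869%, 0.521% and 0.260% of annotated cells after GITR/Syn GA-aFuc, against 1.68%, 1.103% and 0.714% after GA-aFuc. The highest GITR/Syn GA-aFuc mouse lay above the lowest GA-aFuc mouse, so the treatments overlapped, but within each library every GITR/Syn GA-aFuc mouse lay below every GA-aFuc mouse. The means were 0.550% ± 0.306 and 1.16% ± 0.484 (SD, n = 3 each), over 26 and 54 cells. Between them lay the means of the N297A mice (0.977% ± 0.303) and the Untreated mice (0.772% ± 0.313, SD, n = 3 each). In edgeR's quasi-likelihood test of cell counts, with library as a term, CD4 cells fell by 1.11 ± 0.30 on the log2 scale (SE, adjusted p = 0.0229 over 10 types). This was the 1 of 10 cell types called lower (10%), and 0 were called higher. The exact two-sided permutation test within libraries gave p = 0.167, the smallest that its 12 arrangements allow, so it cannot pass at this size. The call was lost in library 2 alone (adjusted p = 0.213), without a library term (adjusted p = 0.176), and on leaving out GITR/Syn GA-aFuc replicate 1 (0.0771) or 3 (0.0683) or GA-aFuc replicate 1 (0.0825) or 2 (0.145).

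Among T cells (CD4, CD8 and Treg together), CD4 cells were 6.78%, 11.8% and 6.76% after GITR/Syn GA-aFuc and 14.9%, 11.4% and 14.7% after GA-aFuc. Part of the library 2 gap lay in cells that also carried Cd8a, the CD8 α chain. Such cells were 2 of 9 and 0 of 5 CD4-labelled cells after GITR/Syn GA-aFuc, against 13 of 19 and 1 of 11 after GA-aFuc. Without them CD4 cells made up 0.405% and 0.260% of GITR/Syn GA-aFuc cells and 0.348% and 0.649% of GA-aFuc cells, which overlap. The log2 ratio of the mean shares was then -0.59, from 12 and 16 cells and with no test, a choice made after the data were seen. No doublet caller was run, and whether these cells are doublets was not tested.

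The remaining types did not pass. Mature regulatory dendritic cells (mregDC), which carry tumour antigen to lymph nodes, were 0.941%, 0.868% and 0.468% after GITR/Syn GA-aFuc, against 0.419%, 0.290% and 0.519% after GA-aFuc (log2 fold change 0.86 ± 0.36, adjusted p = 0.146 by edgeR). Cross-presenting cDC1 were 0.579%, 0.694% and 0.571% against 0.628%, 0.290% and 0.260% (0.69 ± 0.35, adjusted p = 0.331). The treatments overlapped in both dendritic types, by 1 mouse each. NK cells were 5.36%, 5.38% and 3.84% after GITR/Syn GA-aFuc and 9.15%, 7.26% and 3.18% after GA-aFuc (-0.40 ± 0.29, adjusted p = 0.490). Macrophages, the most abundant type, averaged 55.7% ± 3.596 and 55.1% ± 2.78 (SD, n = 3 each, log2 fold change 0.01 ± 0.16). The errors of the rarest types, pDC (-0.62 ± 0.53) and Tregs (-0.31 ± 0.62, 5 and 6 cells), were wider than most differences.

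**Figure D1:**
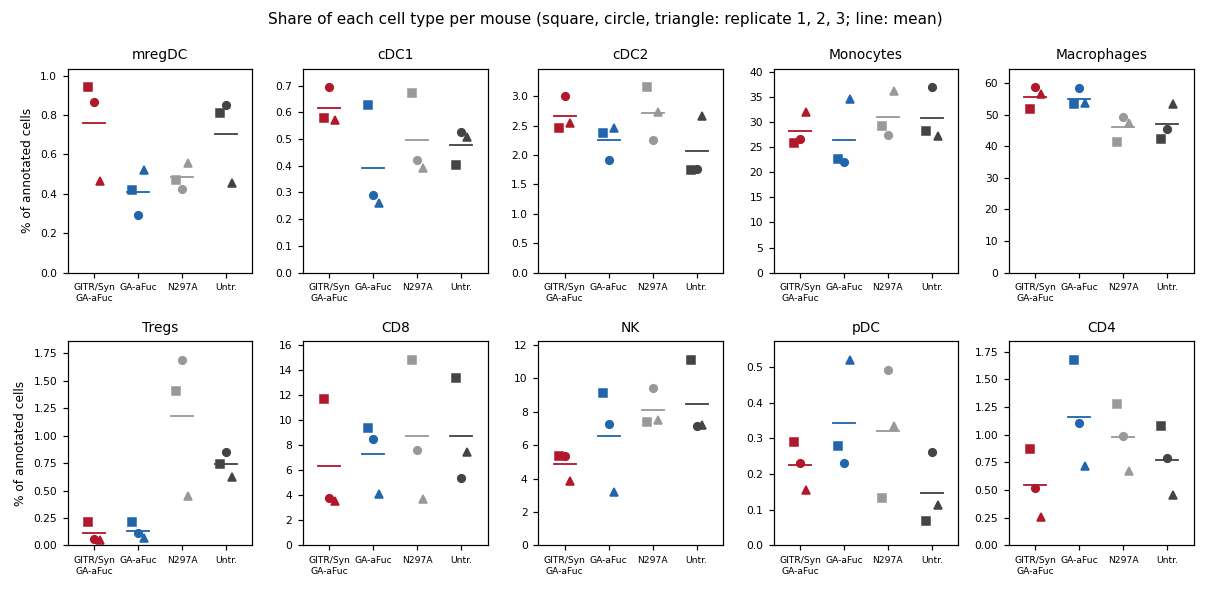
Share of each author-named cell type among annotated cells (y axis, percent, each panel with its own scale from 0), with 1 marker per mouse and a line at the mean of 3 mice. CD4 cells average 0.550% after GITR/Syn GA-aFuc and 1.16% after GA-aFuc, while macrophages average 55.7% and 55.1%.

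At the finer grain of the authors' 58 clusters, 0 shares passed in either direction by edgeR (4 had an unadjusted p under 0.05), and 29 of 58 log2 fold changes (50%) lay above 0. The smallest p was that of monocyte cluster 29, which held 1.67%, 2.20% and 1.87% of cells after GITR/Syn GA-aFuc and 1.26%, 0.813% and 1.23% after GA-aFuc (0.81 ± 0.28, adjusted p = 0.463). Its mice did not overlap, as in 5 of 58 clusters on the higher side (8.62%) and 0 on the lower side. The others were monocyte clusters 1 and 54, macrophage cluster 61 and cDC2 cluster 46, the last with 1.45%, 1.68% and 1.30% against 1.12%, 0.696% and 1.04%. Both CD4 clusters had fold changes below 0 and neither passed, 35 (-0.997 ± 0.362, adjusted p = 0.463) and 59 (-1.27 ± 0.53, adjusted p = 0.568). In library 2, cluster 35 held 7 and 3 cells after GITR/Syn GA-aFuc, against 8 and 9 after GA-aFuc. Cluster 59 held 2 and 2 against 11 and 2 cells there, so its library 2 gap lay in GA-aFuc replicate 2 alone.

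In monocytes, a group of transcripts led by arginase was lower with GITR/Syn GA-aFuc. Of 11920 genes tested by edgeR, 12 passed as lower (0.101%) and 1 as higher (0.00839%). Arg1 (ENSMUSG00000019987), arginase 1, which depletes arginine, stood at 242 and 305 CPM after GITR/Syn GA-aFuc, against 1181 and 2246 CPM after GA-aFuc. The N297A mouse had 147 CPM and the Untreated mouse 165 CPM, below all 4, and the treatments did not overlap. The difference was -2.65 ± 0.27 (log2, SE, adjusted p = 0.00343). Slc7a2, a transporter that brings arginine into the cell, fell as well, with 67.4 and 23.4 CPM against 184 and 234 CPM (-2.22 ± 0.35, adjusted p = 0.0370).

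Genes that mark alternative activation made up much of the rest. Ccl24, the eosinophil attractant eotaxin-2, stood at 8.03 and 2.13 CPM in GITR/Syn GA-aFuc monocytes and at 106 and 628 CPM in GA-aFuc monocytes (-6.26 ± 0.77, adjusted p = 0.00626). Mrc1, the mannose receptor CD206, stood at 39.9 and 15.3 CPM against 135 and 232 CPM (-2.76 ± 0.36, adjusted p = 0.00970). Cdh1, E-cadherin, stood at 6.25 and 2.95 CPM against 27.2 and 37.0 CPM (-2.85 ± 0.31, adjusted p = 0.00343). In all 3 the treatments were apart, and the N297A and Untreated mice lay at the GITR/Syn GA-aFuc level or below it. Fabp5, a fatty acid carrier, was almost equal after GITR/Syn GA-aFuc, at 48.4 and 48.4 CPM, against 122 and 161 CPM after GA-aFuc (-1.55 ± 0.18, adjusted p = 0.00459).

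Pdcd1lg2 encodes PD-L2, a ligand of the checkpoint receptor PD-1. It stood at 32.8 and 20.2 CPM in GITR/Syn GA-aFuc monocytes, against 95.1 and 129 CPM in GA-aFuc monocytes, 8.20 CPM under N297A and 18.2 CPM in Untreated (-2.10 ± 0.24, adjusted p = 0.00343). Pdcd1lg2 and Cdh1 were the monocyte genes whose adjusted p stayed at or under 0.0491 in all 12 settings tried. Tarm1, an activating receptor of myeloid cells, averaged 26.49 CPM against 86.97 CPM and fell by 1.71 ± 0.19 on the log2 scale (adjusted p = 0.00343). The other genes that fell were Hbegf, an EGF-family growth factor (-2.18 ± 0.32), F7, coagulation factor VII (-2.89 ± 0.44), Flt1, a VEGF receptor (-1.002 ± 0.164), and the predicted gene Gm19951 (-1.31 ± 0.17), with adjusted p between 0.00970 and 0.0474.

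Spint1, a surface inhibitor of serine proteases, was the single gene that rose in monocytes. It stood at 144 and 147 CPM after GITR/Syn GA-aFuc, against 73.0 and 56.2 CPM after GA-aFuc (1.18 ± 0.18, adjusted p = 0.0279). The Untreated mouse had 140 CPM and the N297A mouse 53.0 CPM. The levels thus paired GITR/Syn GA-aFuc with no antibody, and GA-aFuc with the other antibody called an agonist, a pattern that rests on 1 mouse each for N297A and Untreated. Arg1 did not share it, since its N297A level was low.

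**Figure D2:**
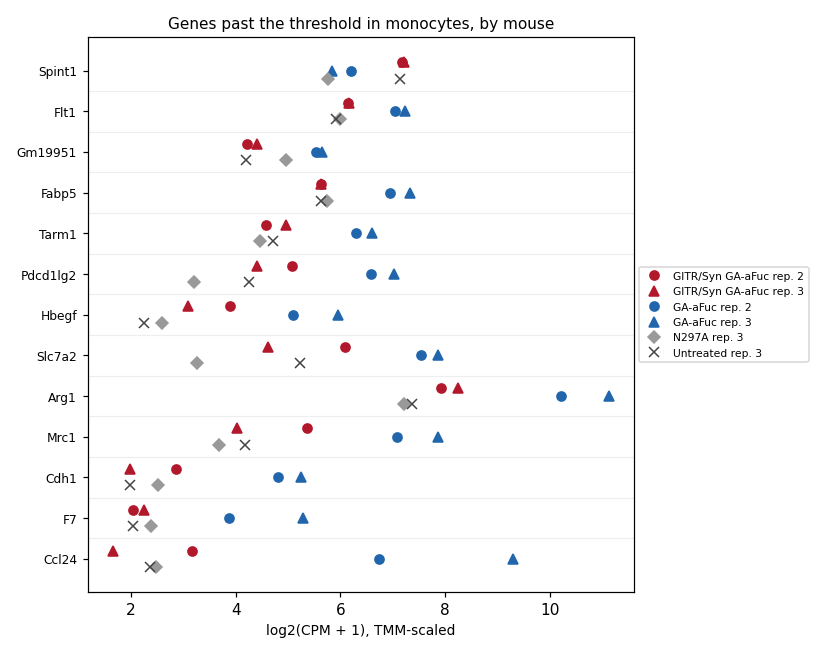
Level of the 13 genes past the threshold in monocytes (x axis, log2 of CPM + 1, TMM-scaled) in each of the 6 mice with counts, ordered by fold change. Spint1 lies to the right after GITR/Syn GA-aFuc and the other 12 genes lie to the left, with Ccl24 the most separated (8.03 and 2.13 against 106 and 628 CPM).

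How far the 13 calls rest on single mice was uneven. They kept their direction in every fit without 1 mouse, and 13 and 12 of them also passed without GA-aFuc replicate 2 or 3, but 4 and 7 passed without GITR/Syn GA-aFuc replicate 2 or 3. GA-aFuc replicate 3 was the higher mouse for each of the 12 genes that fell, and without it Arg1 lay at -2.11 and Ccl24 at -4.47. Monocytes of that mouse also carried more transcripts of another list: 8 neutrophil markers summed to 89.5 and 63.9 CPM after GITR/Syn GA-aFuc, against 67.6 and 368 CPM after GA-aFuc. GA-aFuc replicate 2 lay inside the GITR/Syn GA-aFuc range on that list, and stood above both GITR/Syn GA-aFuc mice for the 12 genes. The part of the neutrophil markers in these calls was not tested. On simulated monocyte counts of 11920 genes, the fit found 65 of the 100 genes given a 2-fold change and 95 of the 100 given an 8-fold change, and made 17 false calls.

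The promoters of 2 monocyte genes are shown because they moved in opposite directions and both hold the palindrome that STAT6 prefers. RefSeq windows from 250 bases before to 50 after the start (build GRCm38.p6) were scanned for 7 of the 13 genes. TTC and GAA separated by any 4 bases, which reads the same on both strands, occurred in 3 of them, Pdcd1lg2, Gm19951 and Spint1. Of all 32851 such windows, which include a chromosome left out of the scan of the 13 genes, 6.95% held a match. A match is a run of letters, not a measured site. Capitals mark it, at -82 from the Pdcd1lg2 start in the 250 bases before that start (chr19:29410669-29410918, plus strand), and at 3 from the Spint1 start in a 30-base stretch (chr2:119237350-119237379, plus strand).
Pdcd1lg2: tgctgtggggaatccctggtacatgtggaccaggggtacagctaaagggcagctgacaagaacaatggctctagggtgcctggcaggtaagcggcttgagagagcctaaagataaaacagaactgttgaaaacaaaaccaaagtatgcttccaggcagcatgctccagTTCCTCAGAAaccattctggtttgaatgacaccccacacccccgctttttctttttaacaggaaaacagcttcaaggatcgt
Spint1: gctctgactcagtTTCACCAGAAactagaa

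The share of monocytes with an Arg1 UMI was lower with GITR/Syn GA-aFuc. With each cell thinned to 3000 UMIs, 15.4% and 21.4% of GITR/Syn GA-aFuc monocytes had an Arg1 UMI, against 36.9% and 51.7% of GA-aFuc monocytes, 15.8% under N297A and 16.2% in Untreated. Cells under 3000 UMIs, 15 and 4 against 11 and 29, were left out, and the unthinned shares were 23.8% and 30.7% against 47.6% and 59.6%. The treatments did not overlap on either measure. In CD8 cells, which should lack arginase, thinned shares were 3.03% and 4.41% against 3.50% and 0%. The last is 0 of 61 cells, which allows a share of up to 4.92%, for counting error only. In NK cells thinned shares were 1.0989% and 2.74% against 4.92% and 8.51%, from 1 and 2 against 6 and 4 cells. The NK shares were thus apart in the same direction as those of monocytes, with 5.04% in Untreated. The monocyte shares were above those of both types in each mouse. Whether Arg1 RNA from other cells added to the monocyte difference was not tested. Median UMIs per cell were 9002 and 9695 against 9624 and 8344 in monocytes, and 7816 and 13152 against 8041 and 8586 in CD8 cells. The 1 in 10 monocytes richest in Arg1 held 89.6% and 81.7% of its UMIs after GITR/Syn GA-aFuc and 65.0% and 51.9% after GA-aFuc.

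The same direction recurred cluster by cluster, though these are parts of the same 4 mice and not further replicates. Clusters with at least 10 cells in every mouse numbered 37. Over them 118 of 254962 pairs of gene and cluster passed as lower (0.0463%) and 25 as higher (0.00981%), in 24 clusters. Arg1 could be tested in 32 clusters and passed as lower in 20 of them, 12 of 19 of macrophages and 8 of 10 of monocytes, while it passed in 0 of the 3 clusters of CD8, NK and cDC2 cells. Its mice were apart on the lower side in 26 of 32 clusters, against 15.2% of all pairs. Over the clusters its log2 fold change had a median of -3.15 and ran from -5.89 to 2.04, the highest in CD8 cluster 23 with 1 and 11 UMIs against 0 and 2. DESeq2 called Arg1 in 8 of 32 clusters, and of 11 clusters with at least 30 cells per mouse edgeR called 7.

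Levels differed widely between monocyte clusters, and in cluster 21 also between mice of a treatment. Its Arg1 stood at 12.0 and 121 CPM after GITR/Syn GA-aFuc, against 951 and 2449 CPM after GA-aFuc. Monocyte cluster 21 held 4 and 52 Arg1 UMIs after GITR/Syn GA-aFuc, against 205 and 889 after GA-aFuc (-4.60 ± 0.28, adjusted p = 6.95e-55), a call that, like every call in that cluster, was lost without GITR/Syn GA-aFuc replicate 2. Cluster 8 held 59 and 185 UMIs against 638 and 2872, or 288 and 421 CPM against 2298 and 6791 CPM (-3.67 ± 0.47, adjusted p = 0.00251). Monocyte cluster 0 was high with both antibodies, at 1206 and 1599 CPM against 3271 and 4110 CPM, above the N297A mouse (224.5 CPM) and the Untreated mouse (674 CPM), and did not pass (-1.40, adjusted p = 0.127). The mice were apart there too.

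**Figure D3:**
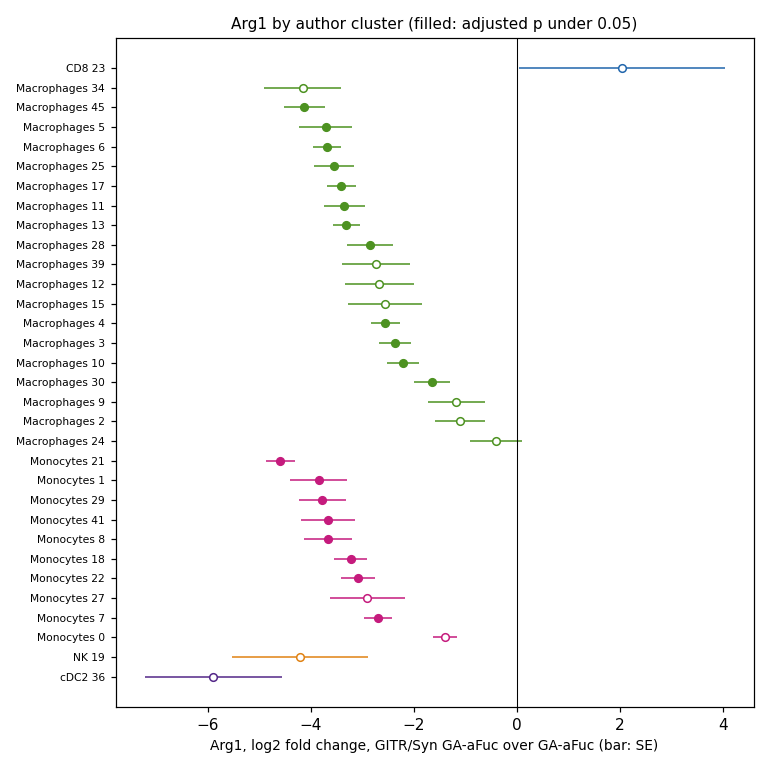
Arg1 log2 fold change, GITR/Syn GA-aFuc over GA-aFuc (x axis, with the SE as a bar), for each of the 32 author clusters in which it was tested, grouped and coloured by cell type. Filled points passed at an adjusted p under 0.05 (20 of 32), and nearly all points lie left of 0.

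Genes other than Arg1 were called in fewer clusters. Ccl24 passed as lower in 7 of 19 clusters (median -5.87), Slc7a2 in 5 of 25, Pdcd1lg2 in 5 of 25 and Ccl8, a monocyte attractant, in 4 of 27. In all, 79 genes passed in at least 1 cluster and 52 of them in 1 alone. Spint1 passed as higher in 3 of 32 clusters, yet its mice were apart on the higher side in 32 of 32 (15.3% of all pairs were), with log2 fold changes between 0.38 and 2.04. Monocyte cluster 21 had the longest list, 43 genes lower (0.691%) and 4 higher (0.0643%), over 32 and 45 against 21 and 40 cells. Of these 47 calls, 0 were kept without GITR/Syn GA-aFuc replicate 2, 3 without GA-aFuc replicate 3 (39 of 44 tested in the same direction) and 1 by DESeq2. Chil3, a chitinase-like protein, had 36.1 and 121 CPM against 186 and 584 CPM there. Nos2, inducible nitric oxide synthase, passed as lower too, at 27.1 and 67.3 against 78.9 and 179 CPM. So did the chemokine gene Ccl2, at 246.5 and 800.5 against 1007 and 1523 CPM. Inhba, at 24.1 and 13.9 against 0 and 157 CPM, and the protease gene Mmp12, at 78.2 and 25.5 against 18.6 and 262 CPM, overlapped and were high in GA-aFuc replicate 3 alone.

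Some clusters held genes that rose. In monocyte cluster 8, where 1 gene passed as higher (0.0159%) and 6 as lower (0.0951%), Cxcl9, an interferon-γ-induced attractant of T cells, stood at 1616 and 1820 CPM after GITR/Syn GA-aFuc, against 382 and 291 CPM after GA-aFuc, 588 CPM under N297A and 1397 CPM in Untreated (2.36 ± 0.33, adjusted p = 0.00386). In CD8 cluster 16, 2 genes passed as higher (0.0394%), the chemokine genes Ccl5 (3575 and 5456 against 2019 and 2232 CPM, 1.09 ± 0.19, adjusted p = 0.0371) and Ccl3 (652 and 493 against 131 and 232 CPM, 1.72 ± 0.30, adjusted p = 0.0371). The N297A mouse had 1307 CPM of Ccl3, above all 4. Neither call was kept without GA-aFuc replicate 2, in the 4 mice alone or with a stricter filter on counts. In NK cluster 20 (1 gene higher, 0.0145%) Klra5, a receptor of the Ly49 family, stood at 111 and 90.7 CPM against 5.52 and 6.75 CPM (4.03 ± 0.47, adjusted p = 6.57e-05). The N297A mouse had 43.2 CPM of Klra5 and the Untreated mouse 64.3 CPM, below the GITR/Syn GA-aFuc mice and above the GA-aFuc mice. Ly49 genes are close copies of each other, so the count of any 1 of them is uncertain. CD8 cluster 23 had 10 genes higher (0.326%) and 2 lower (0.0651%), the higher ones including C1qa, C1qb, C1qc, Apoe, Lyz2 and Ms4a7, which are macrophage transcripts. Of its 12 calls, 1 was kept by DESeq2, 2 in the 4 mice alone and 6 without GITR/Syn GA-aFuc replicate 3. Whether free RNA or doublets supplied these transcripts was not tested.

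In macrophages 1 gene of 14340 passed as lower (0.00697%) and 0 as higher. That gene was Flt1, with 9.74 and 11.5 CPM after GITR/Syn GA-aFuc and 41.8 and 40.5 CPM after GA-aFuc, against 8.80 CPM under N297A and 14.4 CPM in Untreated (-1.95 ± 0.16, adjusted p = 0.0229). The replicates of a treatment were closer to each other than to the other treatment, but the call was lost without GITR/Syn GA-aFuc replicate 2 (adjusted p = 0.136) or 3 (adjusted p = 0.371). DESeq2 called 10 genes lower (0.0697%) and 1 higher (0.00697%), and with sex as a term edgeR called 190.

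Several genes that passed in monocytes did not pass in macrophages. Arg1 stood at 98.9 and 121 CPM in GITR/Syn GA-aFuc macrophages and at 359 and 1406 CPM in GA-aFuc macrophages (-3.002 ± 0.544, adjusted p = 0.734), and Pdcd1lg2 at 7.26 and 3.56 against 23.6 and 27.4 CPM (-2.24 ± 0.31, adjusted p = 0.426). Spint1 stood at 102 and 81.4 CPM against 39.7 and 32.9 CPM, with 31.7 CPM under N297A and 86.5 CPM in Untreated (1.34 ± 0.20, adjusted p = 0.426). In each the mice were apart, and 10.6% of macrophage genes were apart on the higher side and 10.7% on the lower side. Macrophages of the GA-aFuc mice differed among themselves: monocyte markers summed to 157 and 251 CPM after GITR/Syn GA-aFuc, against 154 and 951 CPM after GA-aFuc. Arg1 called lower in 12 macrophage clusters, and not over all macrophages, comes from separate fits, and the difference between these fits was not tested.

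Among 19 pathway lists, chosen with earlier results of these data known, alternative activation had the lowest median in monocytes, macrophages, cDC2 and dendritic cells. Marker lists of other cells lay lower in some: neutrophil markers at -3.57 in monocytes (7 tested), monocyte markers at -1.25 in macrophages (8 tested), and pDC markers in dendritic cells. Their part in the pathway medians was not tested. The alternative activation list holds Arg1 and Pdcd1lg2, given above, so its rank is not separate from those calls. In monocytes 6 of its 18 tested members passed as lower and 0 as higher, its median log2 fold change was -1.13 against -0.003 over all genes, and 10 of 18 had mice apart on the lower side, against 15.9% of all monocyte genes. The medians were -0.98 in macrophages (0 of 17 passed), -0.92 in cDC2 (2 of 15 passed as lower) and -0.83 in all dendritic cells (0 of 16 passed). They were -0.40 in NK cells and 0.15 in CD8 cells. Glycolysis and hypoxia genes had 18 of 18 members below 0 in monocytes (median -0.35) and 19 of 19 in macrophages (median -0.37), and 0 passed in either. Ero1a, an oxidase of the endoplasmic reticulum that hypoxia induces, is an example at 68.3 and 86.4 CPM in GITR/Syn GA-aFuc monocytes and 105 and 270 CPM in GA-aFuc monocytes (-1.28 ± 0.33, adjusted p = 0.423).

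MHC class II genes, which present antigen to CD4 cells, had 11 of 11 members above 0 in macrophages (median 0.30) and in monocytes (median 0.27), and 0 passed. Cd74, the invariant chain, in macrophages stood at 7553 and 4750 CPM after GITR/Syn GA-aFuc, 5656 and 4371 CPM after GA-aFuc, 3500 CPM under N297A and 8475 CPM in Untreated, and the treatments overlapped (0.30 ± 0.28, adjusted p = 1). Inflammatory cytokines and chemokines had 16 of 20 members below 0 in monocytes (median -0.40) and 0 passed. Of these, Ccl8 (6.91 and 14.9 against 18.2 and 379 CPM) was high in GA-aFuc replicate 3 alone. Members of a list share mice and regulators, so counts of one sign are not independent.

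**Figure D4:**
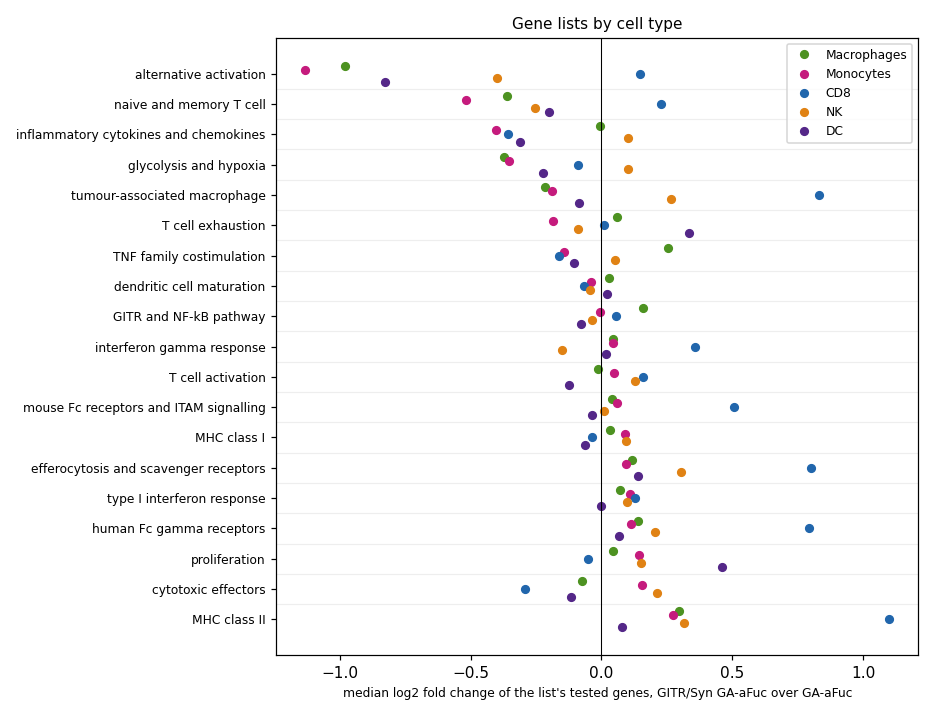
Median log2 fold change, GITR/Syn GA-aFuc over GA-aFuc (x axis), of the tested members of 19 gene lists in 5 cell classes (colours). Alternative activation lies at -1.13 in monocytes and -0.98 in macrophages, and most other myeloid medians lie between -0.5 and 0.5.

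The list of GITR and its NF-kB pathway, the signal that the antibodies differ in by name, was close to 0. Its medians were 0.16 in macrophages, -0.01 in monocytes, 0.05 in CD8 cells, -0.04 in NK cells and -0.08 in dendritic cells, with 18 members tested and 0 passing in each. Tnfrsf18 itself stood at 201 and 246 CPM in GITR/Syn GA-aFuc CD8 cells and 257 and 280 CPM in GA-aFuc CD8 cells, and at 102 and 125 against 114 and 108 CPM in NK cells. Its ligand gene Tnfsf18 had 16 and 5 UMIs over all cells of the GITR/Syn GA-aFuc mice and 7 and 5 after GA-aFuc, too few to compare. Il4 (5 and 6 against 9 and 5 UMIs) and Il13 (5 and 4 against 3 and 5 UMIs), the cytokines that induce alternative activation, were as sparse.

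Cd40lg, the ligand through which CD4 cells license dendritic cells, had 5 and 10 UMIs over all cells of the GITR/Syn GA-aFuc mice and 29 and 15 after GA-aFuc, with 17 under N297A and 21 in Untreated. CD4 cells numbered 9 and 5 against 19 and 11, with 12 under N297A and 8 in Untreated. The Cd40lg sums are therefore not levels per cell. Cd40, the gene of the receptor for this ligand, passed in none of the classes where it was tested, with 102 and 105 against 87.4 and 70.0 CPM in monocytes (0.40 ± 0.17, adjusted p = 0.927). Il12b, the IL-12 subunit that dendritic cells make after licensing, stood at 1954 and 537 CPM in mregDC of GITR/Syn GA-aFuc mice and at 648 and 929 CPM in those of GA-aFuc mice, which overlap. The human Fcγ receptors, which bind the Fc part, had 0 members passing in macrophages, monocytes, CD8, NK, dendritic cells or cDC2. FCGR1A, the high-affinity receptor, stood at 125 and 122 against 101 and 72.8 CPM in monocytes (0.52 ± 0.19, adjusted p = 0.758), and at 235 and 232 against 196 and 148 CPM in macrophages (0.44 ± 0.20, adjusted p = 1). In cDC1, where 4 to 12 cells per mouse were at hand, FCGR3B passed as lower (51.5 and 43.7 against 74.3 and 480 CPM, -2.43 ± 0.48, adjusted p = 0.000549). FCGR3A and FCGR3B are close copies whose counts can be split, as are members of the FCGR2 group.

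In dendritic cells, Cd209a and Lgals1 were among the genes that fell with GITR/Syn GA-aFuc. Over all 4 dendritic types 12 of 8557 genes passed as lower (0.14%) and 0 as higher, and within cDC2 22 of 7404 passed as lower (0.297%) and 8 as higher (0.108%). Cd209a, a DC-SIGN family lectin of monocyte-related cDC2, stood at 59.1 and 95.6 CPM in GITR/Syn GA-aFuc cDC2, against 249 and 306 CPM in GA-aFuc cDC2, 130 CPM under N297A and 92.1 CPM in Untreated (-1.84 ± 0.25, adjusted p = 0.000163). Lgals1, galectin-1, stood at 594 and 499 against 990 and 1411 CPM (-1.13 ± 0.15, adjusted p = 0.000163). Neither gene overlapped between treatments, and both also passed over all dendritic cells. Among the other genes that passed as lower over all dendritic cells were the chemokine gene Ccl4 and Capg. Over the settings tried they lay between -1.65 and -1.13, and between -1.77 and -1.31. Igkc, an immunoglobulin gene, passed as lower as well (between -7.86 and -3.96). Which cells supplied its transcripts was not tested.

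Other genes that passed as lower in cDC2 included S100a6 (-0.60 ± 0.09), S100a4 (-0.52 ± 0.11), Crip1 (-0.73 ± 0.10), Anxa2 (-0.89 ± 0.18), Actb (-0.31 ± 0.07), Actg1 (-0.47 ± 0.10) and Cd44 (-0.94 ± 0.19), with adjusted p between 0.000207 and 0.0216. Over the 12 settings tried, the highest adjusted p was 0.0611 for S100a6 and 0.0690 for Crip1, and lay between 0.519 and 0.9999 for the other 5. These were not the largest falls. Over the settings tried, Dok2 lay between -5.04 and -3.26 in cDC2, and Gm56663 between -4.08 and -2.42. Arg1 passed here too, but on few counts, at 3.38 and 7.08 against 174 and 20.2 CPM (-4.17 ± 0.70, adjusted p = 0.00173). Ccl17, an attractant of T cells, passed at -2.15 although its mice overlapped, at 148 and 93.8 against 958 and 116 CPM, and without GA-aFuc replicate 2 it turned to 0.07.

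The 8 genes that rose in cDC2 included Il2ra, the IL-2 receptor α chain, with 82.7 and 90.3 CPM after GITR/Syn GA-aFuc and 17.1 and 40.5 CPM after GA-aFuc (1.59 ± 0.35, adjusted p = 0.0308). Il2ra stood at 73.4 CPM under N297A and 85.1 CPM in Untreated, so the GA-aFuc mice were the low ones. Spint1 rose again (171 and 177 against 70.9 and 91.0 CPM, 1.101 ± 0.252, adjusted p = 0.0426). Cst3, cystatin C, a protease inhibitor abundant in dendritic cells, rose little but evenly (15220 and 13000 against 10980 and 10310 CPM, 0.41 ± 0.07, adjusted p = 0.00171). The others were Trmt61b (2.43 ± 0.45), the endosomal GTPase gene Rab7b (1.67 ± 0.37), the actin regulator gene Jmy (1.59 ± 0.34), Ifit1bl1 (1.53 ± 0.35) and Cd72 (1.04 ± 0.23). The class held 52 and 49 against 33 and 38 cells, and when all mice were cut to the same number of cells 0 genes passed.

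**Figure D5:**
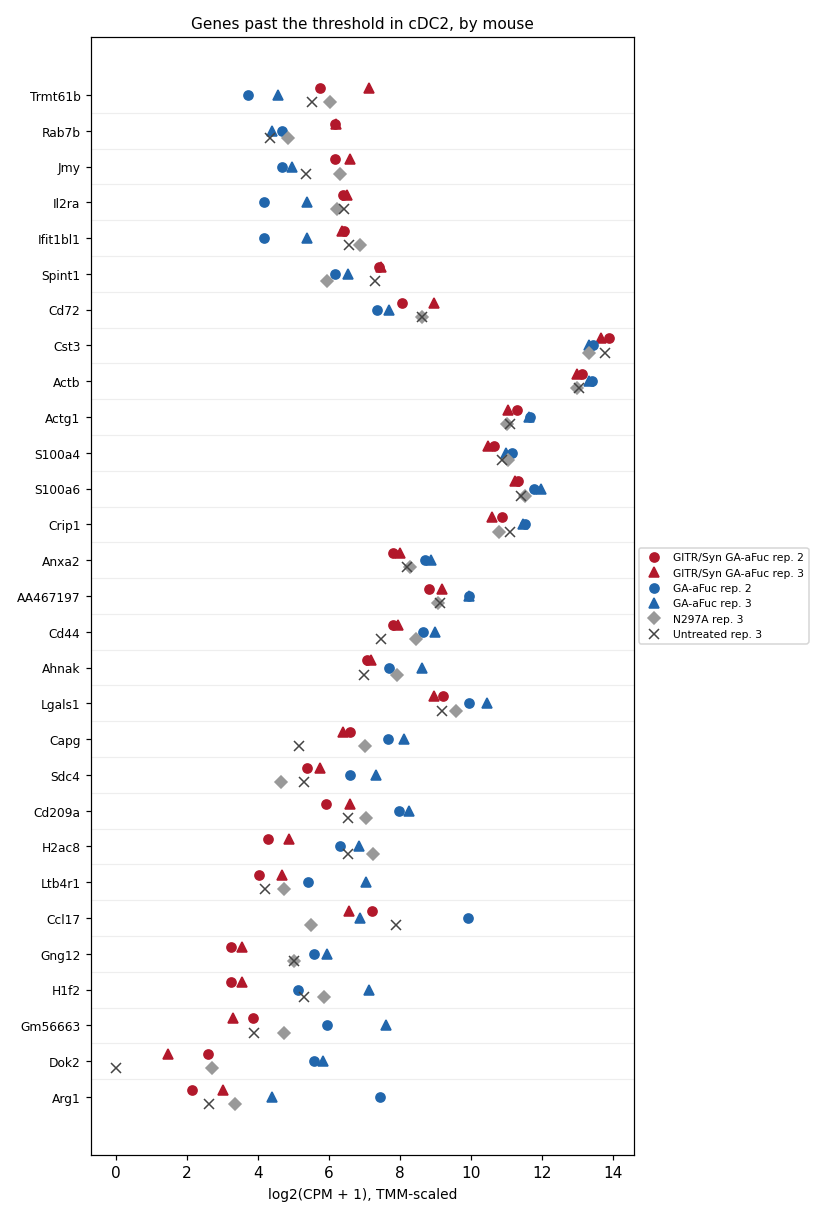
Level of 29 of the 30 genes past the threshold in cDC2 (x axis, log2 of CPM + 1, TMM-scaled) in each of the 6 mice with counts, ordered by fold change. The 8 genes that rose, such as Il2ra, are at the top, and the genes that fell with the widest gap, such as Dok2 and Gm56663, are at the bottom.

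Markers of the dendritic types themselves differed too. Within cDC2, 8 cDC2 markers summed to 823 and 689 CPM after GITR/Syn GA-aFuc and to 1851 and 1589 CPM after GA-aFuc. These markers include Cd209a and Ccl17, whose cDC2 levels are given above. Ccl17 was high in GA-aFuc replicate 2 alone and weighs on the sum of that mouse. cDC1 markers had 8 of 8 members above 0 over all dendritic cells (median 0.75) and pDC markers 7 of 8 below 0 (median -1.60), 0 of either passing. Shares of cDC1 and pDC among all cells were given above, and their part in the pooled calls was not tested. Ccl22, an attractant made by mature dendritic cells, stood at 173 and 160 CPM in GITR/Syn GA-aFuc dendritic cells and 81.8 and 80.5 CPM in GA-aFuc dendritic cells (1.03 ± 0.19, adjusted p = 0.0708).

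For mregDC, cDC1 and CD4 cells the minimum was lowered to 4 cells per mouse after the data were seen, so their values rest on few cells. In mregDC (15 and 9 against 5 and 8 cells) 2 of 2406 genes passed as higher (0.0831%) and 0 as lower. Ifitm1, an interferon-induced membrane protein, stood at 642 and 466 CPM against 25.4 and 46.4 CPM (3.82 ± 0.60, adjusted p = 0.00487), and Ccl17 at 888 and 738 against 203 and 30.9 CPM (2.99 ± 0.57, adjusted p = 0.0320). Ccl17 thus lay on opposite sides of 0 in mregDC and cDC2, and that difference was not tested. In cDC1 (12 and 11 against 5 and 4 cells) 5 of 3254 genes passed as higher (0.154%) and 7 as lower (0.215%). Of these 12 calls, 5 and 1 were kept without GITR/Syn GA-aFuc replicate 2 or 3, and 7 and 6 without GA-aFuc replicate 2 or 3, with 1 reversed without GA-aFuc replicate 2. Those that rose included the DNA replication genes Pcna (155 and 284 against 24.8 and 16.5 CPM, 3.31 ± 0.66, adjusted p = 0.000549) and Pclaf (2.17, adjusted p = 0.002). Those that fell included the interferon-induced genes Slfn1 (-2.17 ± 0.43) and Ifitm3 (-1.41 ± 0.29).

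Over whole lymphocyte types 0 genes passed in the main edgeR fit, while some other settings, with or without a sex term, called genes. In NK cells 0 of 9329 genes passed (0%) by edgeR, with 411 at an unadjusted p under 0.05, and DESeq2 called 1 (0.0107%). In CD8 cells 0 of 8570 passed (0%), with 311 at an unadjusted p under 0.05 and 0 by DESeq2. With sex as a term, which was balanced between the treatments, edgeR called 31 genes in NK cells and 25 in CD8 cells. In CD4 cells 0 of 2744 passed. Of 100 simulated 2-fold changes, 30 were found in CD8 cells and 49 in NK cells, so changes of that size could be missed.

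Medians of the cytotoxic effector genes lay on opposite sides of 0 in NK and CD8 cells, with 0 members passing in either. In NK cells 13 of 15 members lay above 0 (median 0.21). Gzmc stood at 13410 and 15100 CPM in GITR/Syn GA-aFuc NK cells and 11070 and 6118 CPM in GA-aFuc NK cells (0.73 ± 0.18, adjusted p = 0.823). Gzma, another granzyme gene, lay the other way at 4565 and 4554 against 6133 and 5568 CPM (-0.36 ± 0.09, adjusted p = 0.823). In CD8 cells 13 of 16 members lay below 0 (median -0.29), and the difference between the cell types was not tested. Granzymes C to G are close copies, so reads may be split among them.

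Xcl1, the attractant of cDC1, stood at 277 and 972 CPM in GITR/Syn GA-aFuc CD8 cells and at 106 and 123 CPM in GA-aFuc CD8 cells, and did not pass (2.47 ± 0.45, adjusted p = 0.5). Tox, a factor of exhausted T cells, stood at 248 and 223 against 124 and 165 CPM (0.72 ± 0.21, adjusted p = 1), with 443 CPM under N297A and 343 CPM in Untreated. Macrophage markers moved with the class: all 9 lay above 0 in CD8 cells, their sum was 1352 and 921 CPM against 527 and 486 CPM, and their part in other CD8 values was not tested. In CD4 cells Gzmb, granzyme B, had the smallest p, at 152 and 122 CPM after GITR/Syn GA-aFuc and 1058 and 638 CPM after GA-aFuc (-2.58 ± 0.55, adjusted p = 0.991). Cd8a moved with it in 1 mouse, at 35.2 and 0 against 778 and 14.8 CPM, and its part was not tested. Macrophage markers summed there to 8093 and 695 CPM against 713 and 4074 CPM, with no order by treatment.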

How the data were processed

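Members and gene lists were chosen with earlier results of these data known. The authors deposited UMI counts per droplet, whose headers name Cell Ranger 9.0.0 (combined GRCh38 and GRCm39 build, per the submitters' processing notes), and a table of treatment, cell type and cluster per cell. Mice were taken from 12 runs of rising barcodes, and hashtag counts matched in 10476 of 10476 library 2 cells. Library 1 counts were not analysed here, so its mice rest on the runs. The authors' doublet and clustering methods: not given in the sources used here. Counts were summed per mouse and type or cluster (at least 10 cells) and tested with edgeR 4.0.16 (R 4.3.3, filterByExpr, TMM, quasi-likelihood) over all 6 library 2 mice, with Benjamini-Hochberg adjustment. A gene or share passed at an adjusted p under 0.05. The fit assumes that the lone N297A and Untreated mice vary like the others and has 2 residual degrees of freedom. In edgeR the spread of each gene is also drawn toward that of the other genes. A p-value can therefore lie far below what 2 residual degrees of freedom alone would give. SE is the fold change over the square root of F. CPM are TMM-scaled for genes given with a fold change, and raw for marker sums, Il12b and Tnfrsf18. Genes named are mostly those past the threshold with the most extreme fold changes, otherwise those of smallest p, up to 4 per list, and the receptors. In cDC2, genes with small fold changes were named as well, outside that rule. Genes listed for clusters 21 and 23, and Ccl8, were chosen after their values were seen. Alternatives were DESeq2 1.42.0, other filters and scalings, a sex term, equal cells and each mouse left out. Simulated counts with known changes tested the edgeR fit. A gene that passed in dendritic cells is not reported here.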

Additional observations from a re-analysis of the deposited data

How the results depend on the processing

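With 2 mice against 2, the counts of calls moved far more than the fold changes. Of 609 refitted values of the 56 pairs called in macrophages, monocytes, dendritic cells and cDC2, 432 kept direction and call, 176 kept direction alone and 1 reversed, Ccl17 in cDC2 (0.0725 without GA-aFuc replicate 2; -2.98 to 0.0725 with a mouse left out). Further called genes reversed with a mouse left out: 1 of 12 in cDC1 (without GA-aFuc replicate 2), and without GA-aFuc replicate 3 all but 39 of 44 in cluster 21 and all but 3 of 6 in cluster 30. Shares near 0 that reversed were macrophages (-0.00118 with TMM factors, and -0.00231 and -0.0298 without GITR/Syn GA-aFuc replicate 2 or GA-aFuc replicate 3, range -0.0298 to 0.0469), CD8 (0.0328 without GA-aFuc replicate 2, range -0.705 to 0.0328), monocytes (-0.0404 without the same mouse, range -0.0404 to 0.321) and cluster 35 (0.0904 as a share of CD4 cells); the cause was not tested. Called types went from 1 to 0 with no library term, in library 2 alone and in the 6 mice alone, and to between 0 and 3 with a mouse left out; the 3 without GA-aFuc replicate 3 were CD4, NK and mregDC. The CD4 share stood at -1.12 with no library term, -1.23 in library 2, -1.12 in the 6 mice, -0.59 without Cd8a-bearing cells, and between -1.29 and -0.88 with a mouse left out. With no filter on low counts, calls numbered 233 in macrophages, 167 in monocytes, 28 in CD8, 45 in NK, 125 in dendritic cells and 994 over clusters. With sex as a term they numbered 190, 141, 25, 31, 29, 86 in cDC2 and 505. With at least 20 counts in 2 mice they were 8 in monocytes, 7 in dendritic cells, 8 in cDC2 and 79 over clusters. DESeq2 called 11 genes in macrophages, 1 in NK, 6 in cDC2, 36 pairs over clusters and Arg1 in 8 clusters. The 4 mice alone gave 13 in cDC2 and 67 over clusters, equal cells 9 in NK and 0 in cDC2, and a minimum of 30 cells 15 pairs and 7 clusters for Arg1. With a mouse left out, calls ran from 0 to 386 in macrophages, 6 to 222 in monocytes, 0 to 34 in CD8, 3 to 37 in NK, 57 to 184 in dendritic cells, 39 to 87 in cDC2 and 366 to 2110 over clusters. Fits with a sex term or without a mouse have 1 residual degree of freedom; the cause of their longer lists was not tested. Monocytes without cluster 42, left out after the data were seen, kept all 13 calls. Cluster shares gave 0 calls in each setting tried. No paired analysis was possible because replicate numbers follow the order of the runs and pair no mice; the fit with sex as a term is the nearest. Depth limits rare cells most: CD4 values rest on 14 and 30 cells with counts.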
